A study of Homo sapiens with 2 samples.

Results

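Transcript levels of 37 genes of lysosomal hydrolases, their helper proteins and lysosomal membrane proteins were measured by RNA-seq in HCT116 cells, an epithelial line from a human colon carcinoma. The 37 genes were taken by symbol from a table of 60623 named genes, and each symbol matched 1 row. They comprised 12 enzymes that degrade glycosaminoglycans, 8 proteases, 8 lipid hydrolases and helper proteins, 6 hydrolases of glycoprotein glycans and glycogen, and 3 membrane proteins. The siKAT7 culture received an siRNA against KAT7 (HBO1), a histone acetyltransferase, and the siControl culture received a non-specific siRNA. Both cultures were wild type by label, were grown in McCoy's medium with heat-inactivated serum and were transfected with Lipofectamine. The time from transfection to harvest was not given in the sources used here. Each group was 1 library, so no value has a replicate and the spread between cultures is unknown. Named genes summed to 23533186 expected counts in siKAT7 and 23450331 in siControl. An expected count is an estimated number of reads that need not be whole.

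Lysosomes are acidic organelles in which soluble hydrolases break down proteins, glycans and lipids delivered by endocytosis and autophagy. Most of these enzymes are sorted there through mannose 6-phosphate receptors, and heavily glycosylated membrane proteins such as LAMP1 line the organelle. Glycosaminoglycans, the sugar chains of proteoglycans, are taken apart from the chain end by a series of enzymes, each of which needs the step before it, and inherited loss of such an enzyme causes a mucopolysaccharidosis. The transcription factors TFEB, TFE3 and MITF activate many lysosomal genes through E-box elements with the core CACGTG.

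KAT7 itself had 287.22 expected counts in siKAT7, against 442.94 in siControl, so its level in siKAT7 was 69.6% of that in siControl. The log2 ratio of KAT7 was -0.52 (-0.74 to -0.31), a 1.44-fold difference, so KAT7 did not reach the 1.5-fold limit used below. Of the genes tested, 5.77% had a lower ratio than KAT7. Of 10 epithelial and colon markers, 8 passed the level filter described next. Their log2 ratios were 0.0025 to 0.41, with summed levels of 13965 CPM in siKAT7 and 12920 CPM in siControl. CDX1, at 0 in both libraries, and VIL1, with 11.77 counts in siKAT7 and 15.27 in siControl, did not pass. The log2 ratio of VIL1 was -0.21 (-1.45 to 0.97). Of 5 endothelial markers none passed the filter, and PTPRC, the defining blood cell marker, was at 0 in both libraries. COL1A1 alone of 8 fibroblast markers passed it, with 31.1 CPM in siKAT7 and 31.2 CPM in siControl, and CD68 and CSF1R alone of 8 macrophage and blood markers did, with log2 ratios of 0.17 and 0.30. CD68 is itself a lysosomal membrane protein. In bulk RNA, fewer cells of a type and less RNA per cell cannot be told apart.

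Most lysosomal genes differed little between the libraries, while the enzymes of glycosaminoglycan breakdown lay mainly below 0. Levels are given as CPM, counts relative to the TMM-scaled library size, and each difference as the log2 ratio of siKAT7 over siControl with a 95% Clopper-Pearson interval that covers counting error only. All 37 genes passed the filter of a mean of at least 1 CPM, as did 13217 genes in all. A gene was called when the groups differed by 1.5-fold or more and its interval excluded 0. LIPA was the only member of 37 called lower, beside 3.91% of the genes tested, and 0 members were called higher, beside 3.92%. Among the 7834 genes whose mean reached 10 CPM, 0.766% were called lower and 1.39% higher. A single gene among 37 says nothing about the set. With a fold limit 25% above 1, 6 members were lower and 0 higher, beside 10.9% and 10.1% of the genes tested, and with a limit of 2-fold 0 were lower and 0 higher, beside 1.09% and 1.35%. Under total-count scaling, LIPA and NAGLU were at least 1.5-fold lower and 0 members higher, beside 6.34% and 2.72%. Without regard to size, the interval lay below 0 for 15 members and above 0 for 7, or 40.5% and 18.9% of them. Among the genes tested, 22% had an interval below 0 and 23% an interval above 0, and among the 7834 more abundant genes the shares were 26.7% and 30%. Under total-count scaling 22 members had an interval below 0 and 3 above it, beside 35.6% and 13.3% of the genes tested. The median log2 ratio of the 37 was -0.09, beside -0.0048 for the genes tested. The members were chosen with results from these libraries known, so these counts and medians are descriptions and were not tested.

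By group, the 12 glycosaminoglycan-degrading enzymes had a median log2 ratio of -0.20, and 9 of them (75%) were below 0, beside 50.7% of the genes tested. Their interval lay below 0 for 8 enzymes (66.7%) and above 0 for 0, beside 22% and 23% of the genes tested. Among the 7834 more abundant genes these shares were 26.7% and 30%. The other 25 members had a median of 0.01, with 12 below 0 and 13 above. Their intervals lay below 0 for 7 and above 0 for 7, or 28% each. Medians were 0.02 for the proteases, 0.02 for the lipid group, 0.03 for the glycan and glycogen group and -0.0046 for the membrane proteins. Total-count scaling, which lowers the log2 ratio of the genes tested by a median of 0.11, turned the first 3 of these medians negative, at -0.09, -0.08 and -0.07, and put the membrane proteins at -0.11. The glycosaminoglycan group was at -0.31 under that scaling, as this scaling shifts all genes almost alike. By the authors' deposited table, the members lower with an adjusted p under 0.05 numbered 20 and 1 was higher, beside 29.9% and 10.7% of the genes tested here. With a 1.5-fold limit added, 2 were lower and 0 higher in the authors' deposited table, beside 5.85% and 2.28%. That p compares the reads of 2 libraries, not the conditions. The same table marks 0 of the 37 as significant, a mark that went with a log2 fold of at least 1 in size and an adjusted p under 0.001 in all 310 rows that carry it.

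**Figure D1:**
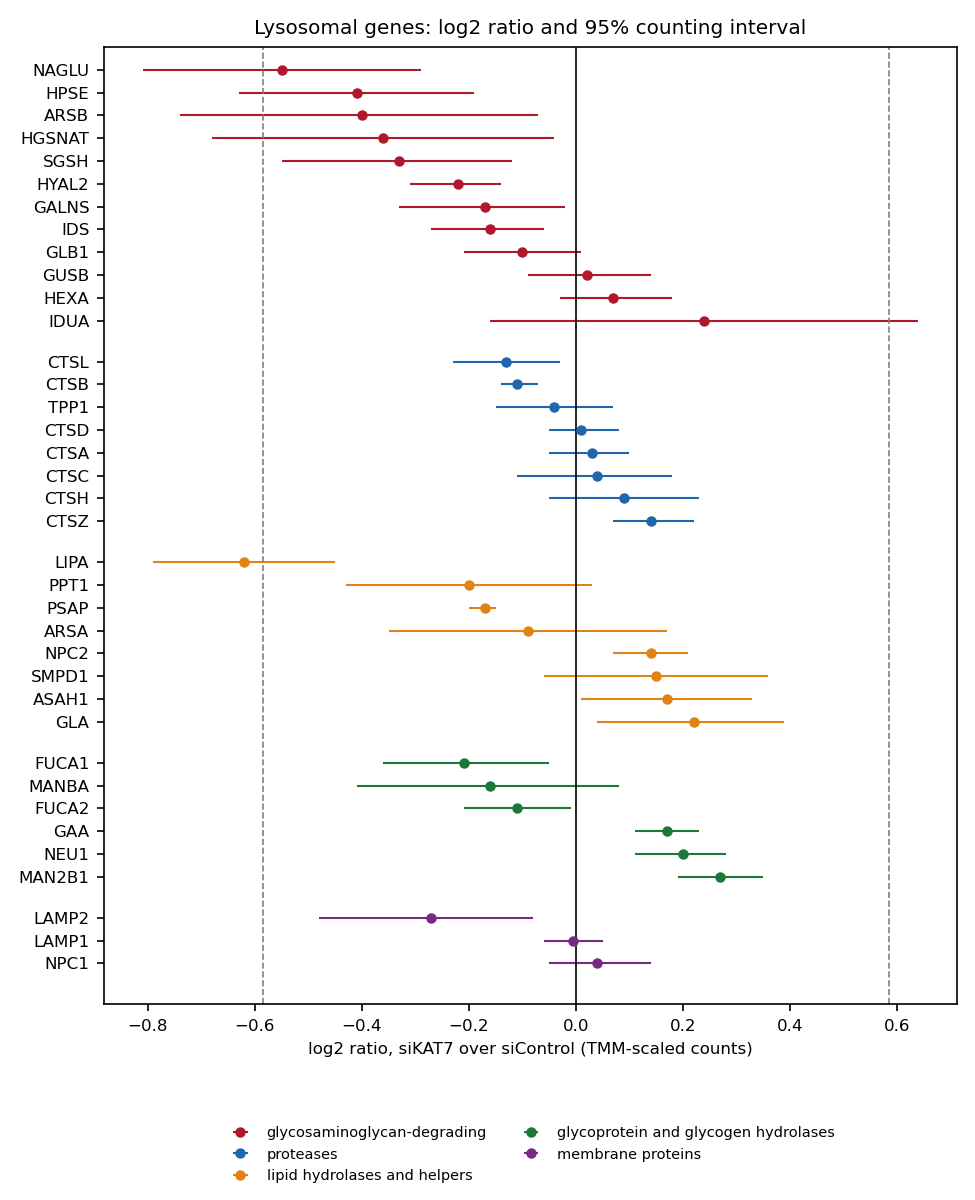
Log2 ratio of siKAT7 over siControl for each of the 37 genes (points) with its 95% counting interval (bars), ordered within 5 groups; dashed lines mark a 1.5-fold difference. NAGLU at -0.55 is the lowest of the glycosaminoglycan-degrading enzymes, and LIPA at -0.62 is the only gene beyond a dashed line.

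Levels per length covered a wide range. Per kilobase of gene model, PSAP, the precursor of the saposins that help lipid hydrolases, was the most abundant member, with 372 CPM in siKAT7 and 420 CPM in siControl. The cysteine protease gene CTSB followed with 266 CPM per kilobase in siKAT7 and 287 in siControl. The cholesterol carrier gene NPC2 had 202 in siKAT7 and 183 in siControl. At the low end stood ARSB, with 1.15 CPM per kilobase in siKAT7 and 1.52 in siControl, and HGSNAT, with 1.21 in siKAT7 and 1.56 in siControl. These values have no spread between cultures, so neighbours in the order cannot be told apart beyond counting error. The glycosaminoglycan-degrading enzymes ran from 1.15 to 43.7 CPM per kilobase in siKAT7 and from 1.52 to 51.1 in siControl. The proteases ran from 16.7 to 266 in siKAT7 and from 16.0 to 287 in siControl.

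**Figure D2:**
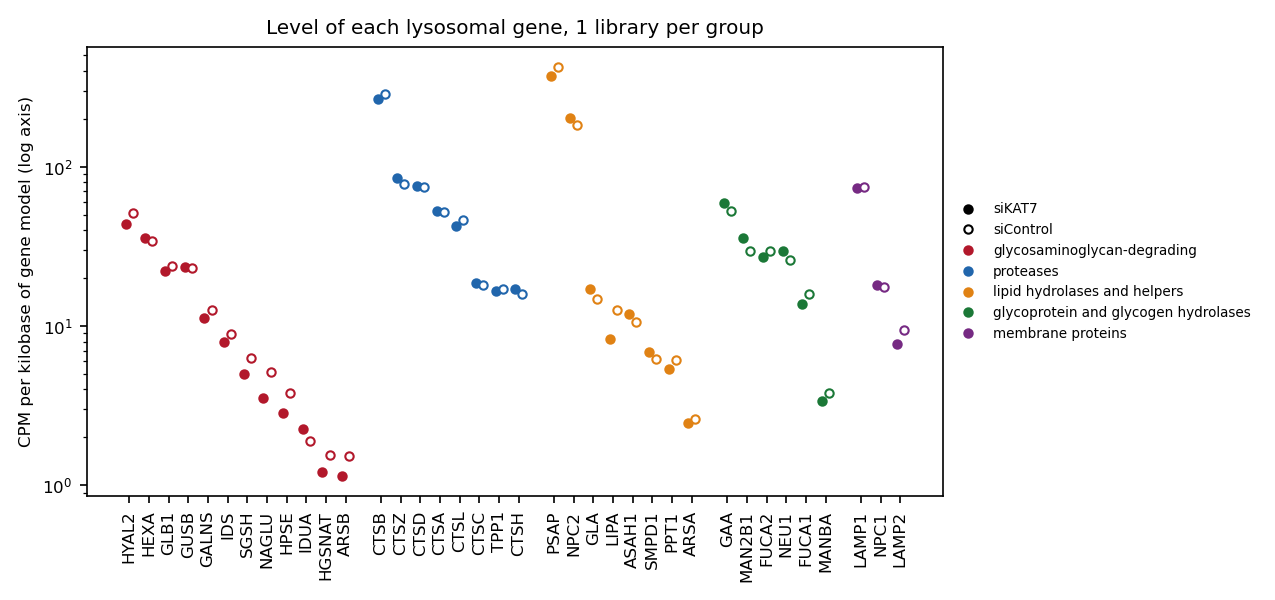
Level of each gene in CPM per kilobase of gene model on a log axis, siKAT7 as filled and siControl as open circles, 1 library per group. Levels run from ARSB, at 1.15 in siKAT7 and 1.52 in siControl, to PSAP, at 372 in siKAT7 and 420 in siControl.

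Heparan sulfate is cut and trimmed by 7 of the enzymes. HPSE, heparanase, which cleaves within the chain, had 300 counts in siKAT7 and 428 in siControl, a log2 ratio of -0.41 (-0.63 to -0.19). IDS, a sulfatase that acts on iduronate, had 1368 counts in siKAT7 and 1646 in siControl, a ratio of -0.16 (-0.27 to -0.06). IDUA, the iduronidase of the next step, had the highest log2 ratio of the group at 0.24, but on 111 counts in siKAT7 and 100.66 in siControl, and its interval of -0.16 to 0.64 included 0. The enzymes that handle the glucosamine residues were lower in siKAT7. SGSH, which removes its N-linked sulfate, had 305 counts in siKAT7 and 413 in siControl (log2 ratio -0.33, interval -0.55 to -0.12). HGSNAT, a membrane enzyme that acetylates the exposed amine, had 144.1 counts in siKAT7 and 198.01 in siControl (-0.36, interval -0.68 to -0.04). NAGLU, which then removes the acetylated glucosamine, had 199 counts in siKAT7 and 312 in siControl. Its level in siKAT7 was 68.5% of that in siControl, a log2 ratio of -0.55 (-0.81 to -0.29) and a 1.46-fold difference just under the limit, and it passed the limit at -0.65 under total-count scaling. GUSB, which removes glucuronate and is often used as a reference gene, had 52.0 CPM in siKAT7 and 51.2 CPM in siControl, with a ratio of 0.02 (-0.09 to 0.14). Thus 5 of the 7 had intervals below 0, beside 22% of the genes tested, and GUSB and IDUA had intervals that included 0. NAGLU lies on chromosome 17 at 42536172 to 42544449 of GRCh38, forward strand, SGSH on chromosome 17 at 80206716 to 80220923, reverse strand, and HPSE on chromosome 4 at 83292461 to 83335153, reverse strand.

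The 5 remaining enzymes of this group act on other chains or at shared steps. ARSB, a sulfatase of dermatan and chondroitin sulfate, had 127.05 counts in siKAT7 and 180 in siControl (log2 ratio -0.40, interval -0.74 to -0.07). GALNS, a sulfatase of keratan and chondroitin sulfate, had 600.19 counts in siKAT7 and 726 in siControl (-0.17, interval -0.33 to -0.02). HYAL2, a hyaluronidase anchored at the cell surface, had 2118 counts in siKAT7 and 2656 in siControl (-0.22, interval -0.31 to -0.14). HYAL2 shares 11.2% of its exon bases with TUSC2 on the same strand, so some reads could fit either. The exoglycosidases were closest to 0, with GLB1, the lysosomal beta-galactosidase, at -0.10 (-0.21 to 0.01) and HEXA, the alpha subunit of beta-hexosaminidase, at 0.07 (-0.03 to 0.18). HEXA was at -0.03 under total-count scaling. GLB1 and HEXA also act on gangliosides. With the 9 enzymes whose loss causes a mucopolysaccharidosis taken alone, the group's median was -0.17.

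Promoter letters of 3 of these genes are shown because they hold the E-box core CACGTG, in capitals, in a group that was mainly lower in siKAT7. They are from RefSeq on GRCh38.p14, 5′ to 3′ on the gene's own strand. GALNS, on the reverse strand, is shown for the 250 bases before its annotated start, chr16:88856948-88857197, and has 2 cores. HPSE and ARSB, also on the reverse strand, are shown as 30 bases around their single core, at chr4:83335167-83335196 and chr5:78986101-78986130, in 1 of 3 and 1 of 2 annotated start windows.
GALNS: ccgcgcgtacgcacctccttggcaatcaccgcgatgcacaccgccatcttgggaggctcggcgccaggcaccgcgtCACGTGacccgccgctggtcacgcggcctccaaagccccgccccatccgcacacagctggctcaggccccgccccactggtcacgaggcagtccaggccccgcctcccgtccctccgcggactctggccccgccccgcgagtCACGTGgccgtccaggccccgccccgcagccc
HPSE: gagcgcgcagaaCACGTGcgtcaggaagcc
ARSB: taattcaataagCACGTGactaaaggattt

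Gene model length and level moved with the group and are given beside it. Of the 12 glycosaminoglycan-degrading enzymes, 4 had gene models of 4000 bases or more, against 2 of the other 25 members, and 6 were under 20 CPM in siControl, against 5. Among the 7834 more abundant genes, the median log2 ratio was 0.09 below 2000 bases, -0.0023 from 2000 to 3000, -0.05 from 3000 to 5000 and -0.07 at 5000 or more. Across those genes Spearman's rho between length and log2 ratio was -0.30, and across the 37 members it was -0.24. Across the 25 members outside the glycosaminoglycan group it was 0.05. These are descriptions over genes of the same 2 libraries. From 2000 to 3000 bases, the 7 glycosaminoglycan-degrading enzymes had a median of -0.17 and the 13 other members one of -0.11. From 3000 to 5000 bases, the 2 glycosaminoglycan-degrading enzymes had a median of -0.40 and the 7 other members one of 0.04. The 1 such enzyme below 2000 bases, HEXA, was at 0.07 and the 5 other members there had a median of 0.14, while the 2 at 5000 bases or more had -0.26 with no other member of that length. The long genes HPSE (4652 bases), ARSB (4852) and HGSNAT (5227) lay below the medians of the more abundant genes of like length. So did NAGLU (2475) and SGSH (2705). These enzymes had the lowest log2 ratios of the 12, so their place below those medians does not describe the group. ARSB, HGSNAT and IDUA, each under 10 CPM, are not among the more abundant genes but are in the enzyme medians by length. By level, the genes tested had medians of -0.02 at 1 to 10 CPM, -0.04 at 10 to 20, -0.01 at 20 to 100 and 0.07 at 100 or more. The glycosaminoglycan-degrading enzymes had medians of -0.36 at 1 to 10 CPM (3 enzymes, no other member), -0.41 at 10 to 20 (3, against -0.16 for 5 other members), -0.10 at 20 to 100 (5, against 0.04 for 11) and -0.22 at 100 or more (1, against 0.03 for 9). The part of length and level in the group's difference was not tested.

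**Figure D3:**
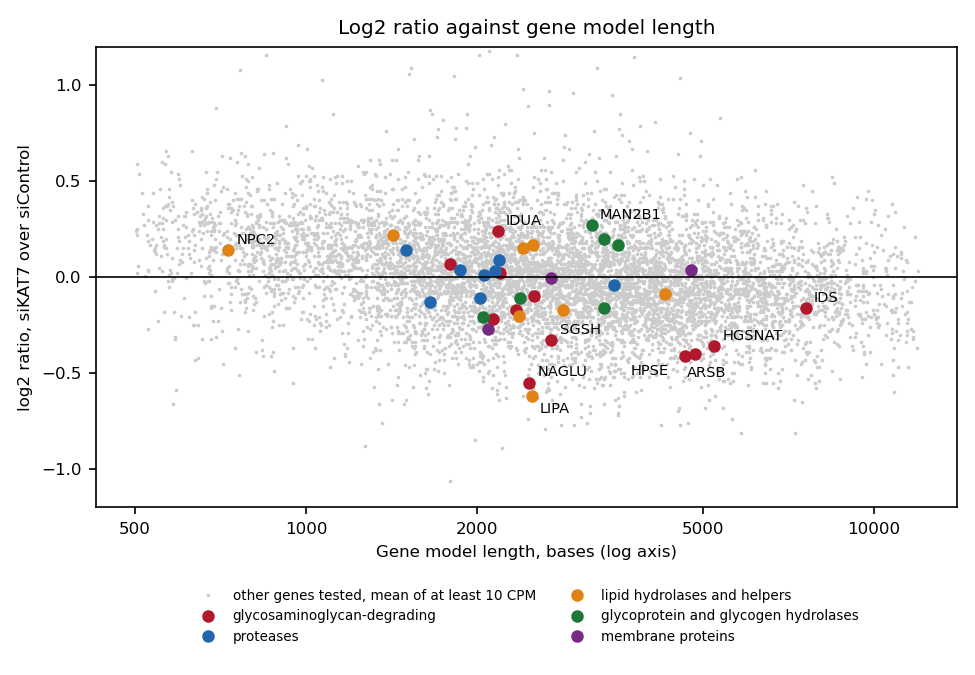
Log2 ratio of siKAT7 over siControl against gene model length on a log axis for the members (coloured points) and other genes of 10 CPM or more on average (grey); grey genes shorter than 500 bases, longer than 12000 or beyond 1.2 in size are not drawn. HPSE, ARSB and HGSNAT are long and low, while NAGLU and LIPA are low at about the same length as most members.

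LIPA had the lowest log2 ratio of the 37 genes. It encodes lysosomal acid lipase, which frees cholesterol and fatty acids from the cholesteryl esters and triglycerides of lipoproteins. It had 467 counts in siKAT7 and 771 in siControl, or 20.6 CPM in siKAT7 and 31.7 CPM in siControl, so the siKAT7 level was 65.0% of the siControl level. The log2 ratio was -0.62 (-0.79 to -0.45), a 1.54-fold difference, and 3.83% of the genes tested had a lower ratio. Total-count scaling put it at -0.73. The gene lies on chromosome 10 at 89213569 to 89414557, reverse strand, and shares at most 2.75% of its exon bases with any other gene model. In the authors' deposited table its log2 fold is -0.73. LIPA has 3 annotated RefSeq start windows and none holds CACGTG. The 250 bases before the most downstream of these starts, chr10:89251776-89252025 on the reverse strand, are shown as the promoter of the called gene, with no capitals because no core was found.
LIPA: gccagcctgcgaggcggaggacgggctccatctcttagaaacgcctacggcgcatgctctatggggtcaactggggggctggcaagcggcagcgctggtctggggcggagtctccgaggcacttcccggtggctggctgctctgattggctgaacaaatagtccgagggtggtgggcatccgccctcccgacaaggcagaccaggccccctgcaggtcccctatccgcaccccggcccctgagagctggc

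The other lipid genes went both ways. NPC2, which passes cholesterol freed by LIPA to NPC1, had 147 CPM in siKAT7 and 134 CPM in siControl (log2 ratio 0.14, interval 0.07 to 0.21). GLA, the alpha-galactosidase of globotriaosylceramide, had 553 counts in siKAT7 and 511 in siControl (0.22, interval 0.04 to 0.39). ASAH1, acid ceramidase, stood at 0.17 (0.01 to 0.33) and SMPD1, acid sphingomyelinase, at 0.15 (-0.06 to 0.36). Under total-count scaling the intervals of NPC2, GLA and ASAH1 included 0. PSAP had 23881 counts in siKAT7 and 28901 in siControl, and its log2 ratio of -0.17 had the narrowest interval of the group, -0.20 to -0.15. PPT1, which removes fatty acids from proteins, stood at -0.20 (-0.43 to 0.03), and ARSA, the sulfatase of sulfatide, at -0.09 (-0.35 to 0.17). PPT1 shares 23.4% of its exon bases with CAP1 on the opposite strand, and the strand setting of the counting was not given in the sources used here. Summed over the group, levels were 1315 CPM in siKAT7 and 1441 CPM in siControl, a log2 ratio of -0.13 against a median of 0.02. PSAP alone held 1053 CPM of the sum in siKAT7 and 1188 CPM in siControl.

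The 8 proteases lay in a narrow band of log2 ratios, from -0.13 to 0.14. CTSB, the most abundant of them, had 12233 counts in siKAT7 and 14147 in siControl (-0.11, interval -0.14 to -0.07). CTSL, a related cysteine protease, had 1594 counts in siKAT7 and 1873 in siControl (-0.13, interval -0.23 to -0.03). CTSZ, a carboxypeptidase, was at the other end, with 2912 counts in siKAT7 and 2831 in siControl (0.14, interval 0.07 to 0.22). Under total-count scaling CTSZ was at 0.04 and its interval included 0. The remaining 5 had intervals that included 0. These were the tripeptidyl peptidase TPP1 at -0.04, the aspartic protease CTSD at 0.01, CTSA, a carboxypeptidase that also protects GLB1 and NEU1, at 0.03, CTSC, which activates granule proteases, at 0.04, and the aminopeptidase CTSH at 0.09. Under total-count scaling all 5 were below 0. CTSD shares 41.7% of its exon bases with another protein-coding model on the same strand, which had 324.37 counts in siKAT7 and 385.7 in siControl, so the division of its reads is uncertain. CTSD and CTSA hold E-box cores, shown as 30 bases on chr11:1763957-1763986 (reverse strand) and on chr20:45891281-45891310 and chr20:45891298-45891327 (forward strand).
CTSD: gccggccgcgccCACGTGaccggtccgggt
CTSA site 1: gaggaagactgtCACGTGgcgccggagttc
CTSA site 2: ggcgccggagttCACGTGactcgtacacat

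Glycoprotein and glycogen hydrolases split evenly. MAN2B1, the lysosomal alpha-mannosidase, had 2583.06 counts in siKAT7 and 2299.78 in siControl and the highest log2 ratio of all 37 genes, 0.27 (0.19 to 0.35). NEU1, a sialidase, had 2260.65 counts in siKAT7 and 2118.79 in siControl (0.20, interval 0.11 to 0.28). GAA, the glucosidase that degrades glycogen, had 4754 in siKAT7 and 4523 in siControl (0.17, interval 0.11 to 0.23). Under total-count scaling these 3 ratios were 0.16, 0.09 and 0.07, still above 0. MAN2B1 shares 13.1% of its exon bases with another protein-coding model on the same strand, which had 230.82 counts in siKAT7 and 156.59 in siControl. The fucosidase genes lay below 0. FUCA1 had 636 counts in siKAT7 and 787 in siControl (-0.21, interval -0.36 to -0.05), and FUCA2 had 1473.99 in siKAT7 and 1704.96 in siControl (-0.11, interval -0.21 to -0.01). MANBA, beta-mannosidase, had a ratio of -0.16 with an interval of -0.41 to 0.08. GAA holds 2 E-box cores in the 250 bases before its start, chr17:80101331-80101580 on the forward strand, and NEU1 holds 1, shown as 30 bases at chr6:31862930-31862959 on the reverse strand.
GAA: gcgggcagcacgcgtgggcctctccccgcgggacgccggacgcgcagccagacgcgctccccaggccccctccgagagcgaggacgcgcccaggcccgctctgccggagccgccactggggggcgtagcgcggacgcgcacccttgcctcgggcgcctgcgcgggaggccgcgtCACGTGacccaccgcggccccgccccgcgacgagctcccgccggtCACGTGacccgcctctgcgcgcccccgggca
NEU1: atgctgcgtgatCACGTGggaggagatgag

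Of the membrane proteins, LAMP1 and LAMP2, the related glycoproteins that coat the inner face of the lysosomal membrane, gave different values. LAMP2, which also serves chaperone-mediated autophagy, had 368 counts in siKAT7 and 478 in siControl (log2 ratio -0.27, interval -0.48 to -0.08). LAMP1 had 4524 counts in siKAT7 and 4871 in siControl, and its ratio was -0.0046 (-0.06 to 0.05). Under total-count scaling LAMP1 was at -0.11 with an interval below 0. NPC1, which exports cholesterol with NPC2, had 1955.52 counts in siKAT7 and 2035.16 in siControl (0.04, interval -0.05 to 0.14), or -0.06 under total-count scaling. The promoter of LAMP1 was the richest in E-box cores among the 27 member promoters searched. It holds 6 in the window searched, 5 of them whole within the 250 bases before the start, chr13:113296989-113297238 on the forward strand.
LAMP1: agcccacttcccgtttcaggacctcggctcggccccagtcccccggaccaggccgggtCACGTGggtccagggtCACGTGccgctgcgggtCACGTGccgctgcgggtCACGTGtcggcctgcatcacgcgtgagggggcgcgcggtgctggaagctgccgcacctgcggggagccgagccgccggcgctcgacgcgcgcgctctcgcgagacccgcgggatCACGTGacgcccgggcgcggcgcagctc

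Across the members the E-box did not sort the genes by direction. RefSeq promoter windows of 300 bases, 250 before the start and 50 after it, were found for 27 members, and the other 10, ARSA, ASAH1, CTSB, HEXA, HGSNAT, LAMP2, MANBA, NAGLU, PSAP and SGSH, were not searched. CACGTG, which reads the same on both strands, was present for 8 of the 27 genes, or 29.6%. Its share was 8.77% among all 27305 genes with a RefSeq promoter window, which were not filtered by level in these libraries. TCACGTG on either strand, which contains that core, was present for 7 of the 27, or 25.9%, beside 4.49% of the 27305. The 8 genes with the core had log2 ratios from -0.41 to 0.20, with 4 above 0 and 4 below. The 19 without it ran from -0.62 to 0.27, with 10 above and 9 below. The medians were 0.00 with the core and 0.02 without. A match describes letters in a window and is not evidence of binding.

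**Figure D4:**
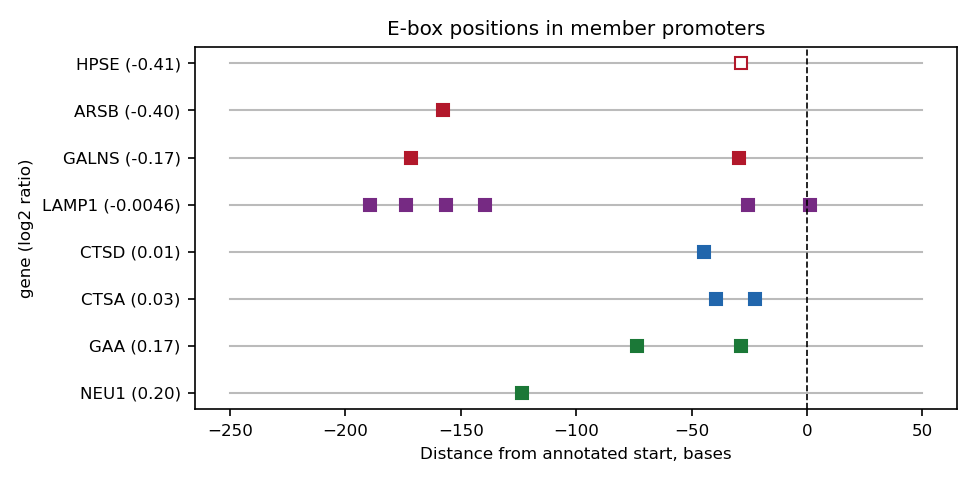
Position of each CACGTG (squares) relative to the annotated start (dashed line) in the 8 member promoters that hold it, ordered by log2 ratio (in brackets); filled squares also hold TCACGTG on either strand, and colours mark the 5 groups as in the plot of ratios. LAMP1, with 6 cores, had a ratio of -0.0046, between HPSE at -0.41 and NEU1 at 0.20.

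The genes that regulate this programme showed small or uncertain differences. TFEB had 443 counts in siKAT7 and 405 in siControl (log2 ratio 0.23, interval 0.03 to 0.43), and TFE3 had 1437 in siKAT7 and 1491 in siControl (0.05, interval -0.06 to 0.15). MITF had 16 counts in siKAT7 and 35 in siControl, a ratio of -1.01 with a wide interval of -1.98 to -0.14. It was the 1 called gene of 7 regulators tested, beside 3.91% of all genes tested called lower. FLCN, which restrains TFEB and TFE3, stood at -0.12 (-0.29 to 0.04). The highest ratios of the 7 were those of FNIP1 at 0.42 (0.00 to 0.83) and ZKSCAN3 at 0.39 (0.03 to 0.76), while FNIP2 was at -0.08 (-0.86 to 0.68). Intervals lay above 0 for 3 of the 7 and below 0 for 1, beside 23% and 22% of the genes tested.

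Other lysosomal hydrolases had a median of -0.08 over 24 genes tested of 31, with 16 below 0. Their intervals lay below 0 for 10 (41.7%) and above 0 for 3 (12.5%), beside 22% and 23% of the genes tested. Of them 1 was called higher and 2 lower, beside 3.92% and 3.91% of the genes tested. The 2 called lower had few counts, AGA with 21 in siKAT7 and 48 in siControl and CTSK with 16 in siKAT7 and 34 in siControl. Both were named after their values were seen. The list includes further glycosaminoglycan-degrading enzymes, of which 4 are given here. ARSG, a heparan sulfate sulfatase, had 142.17 counts in siKAT7 and 212.41 in siControl (-0.47, interval -0.79 to -0.16). HYAL1, the lysosomal hyaluronidase, had 350 counts in siKAT7 and 450 in siControl (-0.26, interval -0.47 to -0.06). ARSK, a sulfatase, had 0.27 with an interval of -0.21 to 0.76. HYAL3 was called higher, with 243.35 counts in siKAT7 and 146.03 in siControl (0.83, interval 0.53 to 1.14). It shares 12.2% of its exon bases with NAA80 on the same strand, which had 524.65 counts in siKAT7 and 659.97 in siControl, so its value is uncertain. Thus 2 of these 4 had intervals below 0 and 1 above, beside 22% and 23% of the genes tested.

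Glycosaminoglycan synthesis, the opposite arm, had a median of -0.08 over 22 genes tested, with 14 below 0 and 8 above. It had 9 intervals below 0 (40.9%) and 4 above (18.2%), beside 22% and 23% of the genes tested. Its called gene, NDST2, a sulfotransferase of heparan sulfate, had 124.91 counts in siKAT7 and 213.64 in siControl (log2 ratio -0.67), but shares 82.9% of its exon bases with another model. EXT1 and EXT2, the subunits of the heparan sulfate polymerase, had 0.31 (0.18 to 0.43) and -0.36 (-0.46 to -0.26). V-ATPase subunits, which acidify the lysosome, had a median of -0.01 over 16 genes, with 8 above 0 and 8 below. Of these ATP6V1F was called higher, with 295 CPM in siKAT7 and 190 CPM in siControl (0.63, interval 0.58 to 0.69). Other lysosomal membrane proteins (22 genes) had a median of 0.01 and genes of sorting and enzyme activation (14) one of -0.01, with 0 called in either list. Intervals of the 22 membrane protein genes lay below 0 for 7 (31.8%) and above 0 for 3 (13.6%). Those of the 14 sorting genes lay below 0 for 4 (28.6%) and above 0 for 3 (21.4%). Over the genes tested, 3.92% were called higher and 3.91% lower. The mannose 6-phosphate receptors M6PR and IGF2R, which carry the hydrolases, stood at -0.18 (-0.26 to -0.10) and -0.15 (-0.27 to -0.04). MCOLN1, the lysosomal calcium channel, had 494 counts in siKAT7 and 396 in siControl (0.42, interval 0.23 to 0.62). That was the highest log2 ratio of the 22 other membrane protein genes, and the lowest was -0.51.

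**Figure D5:**
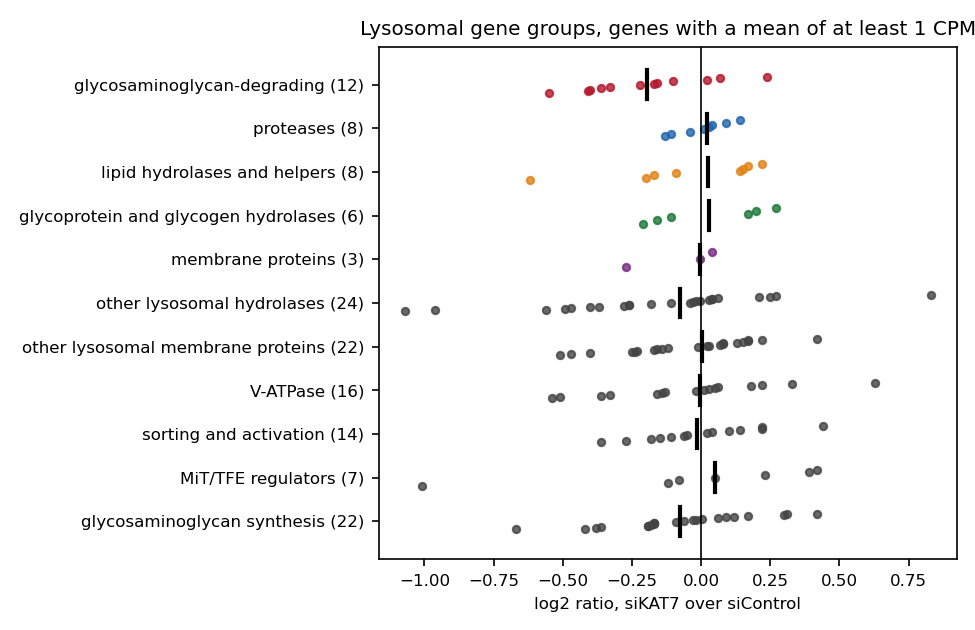
Log2 ratio of siKAT7 over siControl for each gene (points) of the 5 member groups and 6 further lists, with the number of genes tested in brackets and a bar at each median. The glycosaminoglycan-degrading enzymes have the lowest median of the 11 rows, at -0.20.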

How the data were processed

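RNA-seq of 1 library per group was analysed. Per the submitters' processing notes, RSEM 1.3.3 and GRCh38.p13 were used, and the deposited table holds expected counts per gene. Aligner, annotation release and strand setting were not given in the sources used here. The deposited comparison gives a fold (the ratio siKAT7 over siControl), its log2 and p-values, made by the authors with a tool not given in the sources used here. The count columns appear again under the same names with 0 differing cells and were used once. The 331 rows with no gene name, 1.67% of counts in siKAT7 and 1.11% in siControl, were left out.

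Counts were rounded to whole values before scaling with TMM factors (edgeR 4.0.16, R 4.3.3), 0.964 for siKAT7 and 1.04 for siControl. Log2 ratios used a prior count of 0.5. Intervals came from the split of a gene's reads between the libraries, and the reads carry no molecular identifiers. With 1 library per group no test of the condition was possible. Gene model lengths came from the deposited table, coordinates and exon overlaps from GENCODE 29, promoters from RefSeq.

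The members and all lists were chosen with earlier results of these data known. Every member was named. In other lists, called genes with at least 100 summed counts were named (up to 4 per list), with TFEB, TFE3 and MITF. Other genes named from those lists were chosen for their role after their values were seen, and not every gene these rules take is reported here.

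Tested on simulated counts for 13217 genes with counting error alone, the rule called 96 of 100 genes simulated at a log2 ratio of 1 or -1 and 75 of 13017 unchanged genes. Intervals included 0 for 95.5% of unchanged genes. Widely used reference genes, a list of 14 that includes GUSB, had a median log2 ratio of 0.03. Alternatives were total-count scaling, DESeq2 1.42.0 size factors, another prior count, filters, fold limits and interval levels, the authors' folds, and other group definitions.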

Additional observations from a re-analysis of the deposited data

How the results depend on the processing

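Total-count scaling moved the log2 ratio of the genes tested by a median of -0.11, and the values of the authors' deposited table, which lie close to it, moved alike. With total-count scaling 2 members, LIPA and NAGLU, were at least 1.5-fold lower in place of 1, beside 6.34% of the genes tested. An interval above 0 was found for 3 members in place of 7, beside 13.3% of the genes tested in place of 23%. By the authors' deposited table, 20 members were lower and 1 higher with an adjusted p under 0.05, beside 29.9% and 10.7% of the genes tested. With a 1.5-fold limit added 2 were lower and 0 higher, beside 5.85% and 2.28%. Under both, the medians were -0.09 for proteases, -0.07 for the glycan and glycogen group and -0.11 for membrane proteins. A fold limit 25% above 1 called 6 members lower, beside 10.9% of the genes tested, and one of 2-fold called 0, beside 1.09%, while 0 were called higher under either, beside 10.1% and 1.35%. The glycan and glycogen group had 0.13 as the ratio of summed CPM, and -0.11 without MAN2B1, which overlaps another gene model. That last setting, chosen after seeing the data, also left out CTSD, HYAL2 and PPT1, and the lipid median was 0.14 in place of 0.02. The cause of these moves was not tested. Under every alternative run for it, the glycosaminoglycan group's value stayed between -0.31 and -0.14. No member with an interval on one side of 0 changed sign in any alternative run. With total-count scaling 4 members lost and 7 gained an interval that excludes 0, and with DESeq2 size factors 0 lost and 1 gained one. With the authors' folds and adjusted p 6 lost and 5 gained. No library could be left out, since each group has 1. No paired analysis was possible because the groups share a single replicate number. Depth limits ARSB, HGSNAT and IDUA most, each under 10 CPM in both libraries.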
